A study of Mus musculus with 82 samples.

Results

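The skin of mice given 3 Gy was compared at d28 and at d4 in the 3 animals, M013, M014 and M015, that were biopsied at both times. These are 6 of the 82 arrays and 3 of the 24 mice of the series, chosen by dose, day and mouse identity and not by any measured value. All were male C57BL/6j mice, bought at 8 weeks of age and given 1 week to settle, and they received a single whole-body dose of X-rays after which wet biopsies of shaved dorsal skin were taken repeatedly from the same animals and each wound was sutured. The biopsies at 2 h (h2), d7 and d21 of the same mice, 1 further 3 Gy mouse without a d28 array (M012), 3 mice each of the 1 Gy and 6 Gy groups and 1 sham-irradiated mouse with both biopsies serve below as background, and single levels are also given for mice without a d4 array, the sham mouse M003, the 1 Gy mouse M006 and the 6 Gy mouse M019. With 1 sham pair, the effect of radiation cannot be told apart from the passage of time, from healing and from the repeated biopsies. The 3 d28 arrays also lie on 1 slide and the d4 arrays on 2 others, so slide and time cannot be told apart.

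Each array carried a biopsy labelled with Cy5 and a universal mouse reference RNA labelled with Cy3, and a level is given below as the log2 ratio of biopsy over reference after background correction and loess normalization. A difference is d28 minus d4 within a mouse on that log2 scale, so that 1 is a 2-fold higher ratio. Probes well above background in the biopsy channel made up 52.3% to 61.4% of each d4 array and 46.2% to 54.5% of each d28 array. The median reference signal was 122 to 127.5 at d4 and 92 to 103 at d28. The number of arrays limits the precision. The defining genes of skin were present throughout: the genes of the basal and spinous epidermis had a median level of 4.23, 4.90 and 4.29 at d4 and 4.77, 4.55 and 4.76 at d28 in M013, M014 and M015. Skeletal muscle genes were also high, at 5.26, 5.33 and 5.72 at d4 and 5.60, 4.80 and 6.07 at d28.

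M013 stood apart from the other 3 Gy mice at the early times. Hbb-bt, a β-globin gene, went from 8.09 at h2 to 2.35 at d4 in M012, from 7.41 to 3.09 in M014 and from 8.13 to 2.64 in M015, but from 2.21 to 6.80 in M013. Of the 56 genes that were at least 2-fold lower at d4 than at h2 in M012, M014 and M015, 43 differed in the opposite direction in M013, and so did 3 of the 3 genes that were at least 2-fold higher. The same count made against each of the others, over both directions together, gave 3 of 5 genes for M012, 0 of 0 for M014 and 6 of 8 for M015. The labels were kept as given, the cause was not tested, and the results without M013 are as follows. The median difference from d4 to d28 without M013 was -1.49 for endothelial genes, -1.07 for adipocyte genes, 1.33 for erythroid genes, 3.21 for keratin-associated proteins, 2.26 for the growing follicle and 2.20 for the liver list. For single genes it was 5.92 for Hbb-bt, -3.09 for Cldn5 and -2.47 for Depp1. For Alas2, whose d4 signal was low, only levels are given below.

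Skin is a layered tissue. Keratinocytes of the epidermis and the hair follicle rest on a dermis of fibroblasts and matrix that is crossed by blood vessels and underlain by adipocytes and a sheet of muscle. Endothelial cells line the vessels and are joined by claudins and cadherins, and circulating erythroid cells inside them carry globin mRNA into any biopsy. Hair follicles pass through cycles of growth and rest, and the keratin-associated proteins that build the hair shaft are made only while the follicle grows. Dividing cells of the bone marrow, the follicle and the epidermis are sensitive to radiation, and erythroid precursors are among the cells lost early after whole-body exposure.

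No probe passed the study's thresholds, an adjusted p under 0.05 and a fold of at least 2, in the paired comparison. By limma, 0 of 24094 probes were called higher (0%) and 0 lower (0%), and the smallest adjusted p was 0.133. At an unadjusted p under 0.05, 335 probes were at least 2-fold higher and 559 at least 2-fold lower. Other fits on the same probes did make calls: 170 higher and 118 lower when all arrays of the scanner were put in 1 fit, and 132 higher and 323 lower with the authors' deposited normalized values. The fit of all scanner arrays shares the spread and also estimates each difference anew, so that Aoc3 went from -2.88 to -2.43. The median over all probes was -0.03. The genes below are therefore given as levels and differences and not as calls, and for the genes described in most detail the adjusted p of one of these other fits is added. Such a p belongs to the estimate of that other fit and not to the difference and SE printed beside it.

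Counted by gene, 25 of the 13146 genes measured in 3 pairs were at least 2-fold higher at d28 in each mouse (0.19%), and 103 were at least 2-fold lower in each (0.784%). A gene that passed the filter on dim probes only through the day on which it is high could hardly differ the other way, so the lists below are counted over genes well above background on at least 2 arrays of both days. Of 11554 such genes with 3 pairs, 1421 were higher in each of the mice by any amount (12.3%) and 2422 lower (21%), and these are the shares to set beside those counts. With no such condition the shares were 12.1% and 23.2%. The fit of all scanner arrays called 27 of 13665 genes higher (0.198%) and 82 lower (0.6%), and the deposited values called 85 higher (0.622%) and 238 lower (1.74%). Since slide and time coincide in the 3 Gy mice, the d4 arrays of the 1 Gy mice M007 and M009, which share 1 slide that holds no 3 Gy array, were set against the mean of the 3 Gy d4 arrays. Of the 102 genes of the lower group with these values 12 were at least 2-fold lower on both already at d4 (11.8%, against 0.264% of all genes), and of the 25 genes of the higher group 4 were at least 2-fold higher (16%, against 0.461%). Lypd6, H1f6, Fbxw13, Bgn, Serpina3m and Tnnc2, described below, are among them, and 0 of the 15 endothelial and 0 of the adipocyte genes. Doses differ in this comparison as well. Both groups were picked with the same 3 Gy d4 arrays, so other d4 arrays are expected to lie toward their d28 side. Neither these shares nor the counts of 0 can therefore decide on a part of the slide. The 12 leading genes in each direction were ordered by the smallest difference among the 3 mice. That difference was 1.47 for the last gene included on the higher side (Tnnc2) and 1.44 for the first left out (Mup3), and on the lower side -1.78 (Pof1b) and -1.77 (Fbp2). Some genes named below were not well above background on all arrays. At d4 Alas2, Krt33a, Ahsg and Slc4a1 were so on 1 of 3 arrays and Krt71 and Alb on 2, and at d28 Kdr, Sox18, Tek, Tcf15, Pof1b and Fos were so on 2 of 3.

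Endothelial genes had the lowest median of the gene lists examined. Their median level was 2.29, 2.26 and 2.48 at d4 and 0.47, 0.45 and 1.07 at d28, with no overlap between the times. The median difference over the 15 genes measured was -1.58, or -1.63, -2.21 and -1.34 in M013, M014 and M015, beside -0.07 over all genes tested. It was -0.30 when the background model was fitted on all spots, and no longer the lowest, with -0.63 for glycolysis and -0.62 for immediate early genes. Of the 13 genes measured on both days with 3 pairs, 13 were lower at d28 in each of the mice (21% of all such genes), and 7 of them were at least 2-fold lower in each, against 0.784% of all genes (Cldn5, Egfl7, Esam, Robo4, Sox18, Tek and Flt1). The fit of all scanner arrays called 6 of the 15 lower (0.6% of all genes) and the deposited values 14 (1.74%). In these bulk biopsies fewer endothelial cells and less RNA per cell cannot be told apart.

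Cldn5 encodes the main claudin of endothelial tight junctions, on mouse chromosome 16. Its level was 4.05, 4.89 and 4.99 at d4 and 2.08, 1.53 and 2.16 at d28. The difference was -2.72 ± 0.30 (SE, 3 pairs, limma adjusted p = 0.133), a 6.57-fold lower ratio, and the times did not overlap. The adjusted p was 0.00995 with all scanner arrays and 0.00862 with the deposited values, while the scanner software's own ratio gave Cldn5 a difference of 0.49, the opposite direction. Robo4, a guidance receptor of endothelial cells on chromosome 9, was at 4.05, 4.18 and 4.29 at d4 and at 1.35, 0.85 and 2.53 at d28. Its difference was -2.60 ± 0.33 (adjusted p = 0.133, or 0.00379 with all scanner arrays). The biopsy signal of Robo4 was lower at d28, and so was its reference signal, which was 125, 114 and 134 at d4 and 34, 42 and 48 at d28. It was the 1 endothelial gene whose reference signal was at least 2-fold lower in each mouse.

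Mmrn2, a matrix glycoprotein of vessel walls, had the largest mean difference of the leading lower genes. It was at 5.01, 6.43 and 6.44 at d4 and at 2.52, 1.26 and 4.31 at d28 (-3.26 ± 0.59, adjusted p = 0.171, or 0.00923 with all scanner arrays), and M015 moved least. The Mmrn2 difference was -3.84 with the deposited values and -1.12 when the background model was fitted on all spots. Esam, an endothelial adhesion molecule, was at 2.91, 2.26 and 2.98 at d4 and at 0.49, 0.53 and 1.33 at d28. Egfl7, a protein secreted by endothelial cells, was at 2.01, 2.46 and 2.48 at d4 and at 0.13, 0.25 and 1.07 at d28. Flt1 and Kdr are receptors of vascular growth factors. Flt1 was at 0.41, 0.84 and 1.30 at d4 and at -0.86, -1.44 and 0.06 at d28, and Kdr at 2.56, 2.89 and 2.87 at d4 and at 1.43, 0.45 and 2.34 at d28. Vwf, the carrier of clotting factor VIII, differed by -1.84, -2.29 and -0.52, and Pecam1, the classic endothelial surface marker, by -0.89, -1.43 and -1.34.

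**Figure D1:**
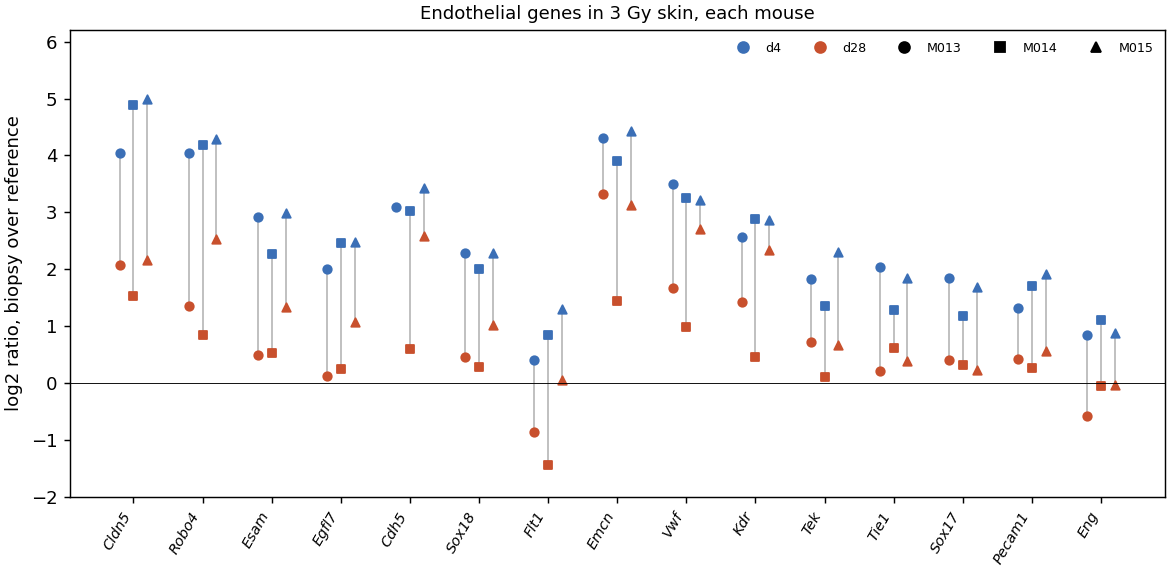
Levels of endothelial genes at d4 and d28 in 3 Gy skin, as the log2 ratio of biopsy over reference RNA, with 1 point for each mouse (marker shape) and time (colour). The d28 points lie under the d4 points for Cldn5, where they are at 1.53 to 2.16 against 4.05 to 4.99, and M015 is the highest d28 point for Robo4 at 2.53.

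Promoter windows of Cldn5, Robo4 and Alas2 are shown because the endothelial genes, and likewise the leading erythroid genes, differed in 1 direction. The genes and motifs were chosen after the values were seen. The windows run from 250 bases before to 50 bases after the start in RefSeq (GRCm38.p6, plus strand): chr16:18776597-18776896 for Cldn5, chr9:37401722-37402021 for Robo4 and chrX:150547167-150547466 for Alas2. Capitals mark matches on either strand, to CAGGAA, a core sequence bound by ETS factors, in the endothelial pair and to AGATAA, a core bound by erythroid zinc-finger factors, in Alas2.
Cldn5: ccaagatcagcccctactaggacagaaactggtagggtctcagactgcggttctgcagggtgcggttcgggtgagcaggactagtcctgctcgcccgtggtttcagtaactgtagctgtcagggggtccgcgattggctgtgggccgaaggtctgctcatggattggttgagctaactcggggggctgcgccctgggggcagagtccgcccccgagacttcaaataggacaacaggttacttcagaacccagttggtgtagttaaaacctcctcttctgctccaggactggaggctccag
Robo4: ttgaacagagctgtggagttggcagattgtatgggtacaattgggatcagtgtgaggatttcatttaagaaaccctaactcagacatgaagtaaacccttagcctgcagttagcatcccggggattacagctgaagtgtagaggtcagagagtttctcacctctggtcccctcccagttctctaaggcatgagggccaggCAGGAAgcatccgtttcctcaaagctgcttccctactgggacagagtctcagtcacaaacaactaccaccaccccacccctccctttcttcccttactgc
Alas2: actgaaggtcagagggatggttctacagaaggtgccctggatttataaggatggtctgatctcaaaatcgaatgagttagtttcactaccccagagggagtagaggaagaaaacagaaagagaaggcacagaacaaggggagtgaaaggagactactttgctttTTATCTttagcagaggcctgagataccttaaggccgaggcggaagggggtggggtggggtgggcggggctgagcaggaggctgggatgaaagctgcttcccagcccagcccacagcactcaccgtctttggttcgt
CAGGAA occurred in 10037 of 32851 RefSeq promoter windows of that length (30.6%). By gene, 9019 of the 27025 in the table held a match. Of the 15 endothelial genes tested 9 had a window in the table, and 6 of these 9 genes, or 7 of their 11 windows (63.6%), held a match. Robo4 held 1 match and Cldn5 none, which says only that these letters are not in its window. AGATAA occurred in 3672 windows (11.2%), and in 1 of the 5 erythroid genes tested with a window, Alas2, where it lies on the minus strand and reads TTATCT as printed. Neither motif contains the other, and a match is a description of sequence only.

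The other leading lower genes have varied roles. Depp1, a FOXO target that is abundant in vascular endothelium and fat, was at 4.94, 3.15 and 3.96 at d4 and at 0.52, 0.66 and 1.51 at d28, a difference of -3.12 ± 0.43 (adjusted p = 0.133, or 0.00607 with all scanner arrays). The Depp1 difference was -1.76 with the deposited values and -1.28 when the background model was fitted on all spots. Aoc3, an amine oxidase of adipocytes, smooth muscle and endothelium, was at 4.33, 5.01 and 4.63 at d4 and at 2.22, 1.08 and 2.05 at d28 (adjusted p = 0.0443 with all scanner arrays). Tcf15, a basic helix-loop-helix transcription factor, was at 2.31, 1.53 and 2.42 at d4 and at 0.02, -0.35 and 0.34 at d28 (adjusted p = 0.0455 with all scanner arrays). For each of these genes the lowest d4 level was above the highest d28 level.

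Bgn, the matrix proteoglycan biglycan, was at 0.87, 1.15 and 0.95 at d4 and at -1.93, -0.86 and -1.80 at d28 (-2.52 ± 0.24, adjusted p = 0.133, or 0.0395 with all scanner arrays). Its reference signal was 3245, 3984 and 4067 at d4 and 3032, 3350 and 3320 at d28. Bgn was also low at d4 in the 1 Gy mice M007 and M009, at -0.68 and -0.03, and in the sham mouse M002 at h2, at -1.22, which share 1 slide, and M007 went from 1.62 at h2 to -0.23 at d7 on another slide. At d28 it was at 1.54, 1.45, 1.68 and -0.47 in the 6 Gy mice M016, M018, M019 and M020, of which the last 3 share a slide. Cebpd, an acute-phase transcription factor that also acts early in fat cell formation, was at 0.73, 0.06 and 0.60 at d4 and at -1.59, -2.75 and -1.32 at d28 (adjusted p = 0.0125 with all scanner arrays). Aatk, a kinase gene, was at 2.20, 2.38 and 3.26 at d4 and at 0.35, 0.55 and 1.08 at d28, and Pof1b, an actin-binding protein of epithelia, at 3.80, 2.38 and 2.16 and then at 1.11, 0.39 and 0.38. With all scanner arrays the adjusted p was 0.0370 for Aatk and 0.0325 for Pof1b. The deposited values gave smaller differences for some of these genes, with -1 for Bgn, -0.59 for Cebpd and -0.32 for Pof1b, and an adjusted p of 0.0538 for Bgn, 0.100 for Cebpd and 0.322 for Pof1b.

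For 3 of the leading lower genes the reference signal was at least 2-fold lower at d28 in each mouse as well. Fbxw13, an F-box protein gene, had biopsy signals of 568, 603 and 542 at d4 and 65, 67 and 63 at d28, beside reference signals of 380, 597 and 480 and then 42, 49 and 42. Lypd6 had reference signals of 250, 367 and 387 at d4 and 43, 48 and 51 at d28, and H1f6, a testis histone gene, had 239, 200 and 182 and then 48, 54 and 55. None of these was well above background in the biopsy on any d28 array, and neither a fold nor a p is given for them. At other doses these genes did not keep to the day: at d4 in the 1 Gy mice M007 and M009 Lypd6 was at -0.04 and 0.04, Fbxw13 at 0.03 and -0.11 and H1f6 at 0.05 and 0.14. At d28 in the 6 Gy mice M016, M018, M019 and M020 Lypd6 was at 2.87, 3.08, 3.36 and 1.18, and M018, M019 and M020 share 1 slide. The part of the slide in these ratios was not tested. Over the 103 genes at least 2-fold lower in each mouse, the biopsy signal itself was at least 2-fold lower in each for 73 and the reference signal for 20 (19.4%), against 208 of all 13665 genes for the biopsy and 527 for the reference (3.86%). Of the 25 genes at least 2-fold higher in each, the biopsy signal itself was so for 10, against 10 of all 13665 genes. The reference signal was at least 2-fold lower in each mouse for 1 of these 25 (4%). The part of the reference channel in these ratios was not tested.

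**Figure D2:**
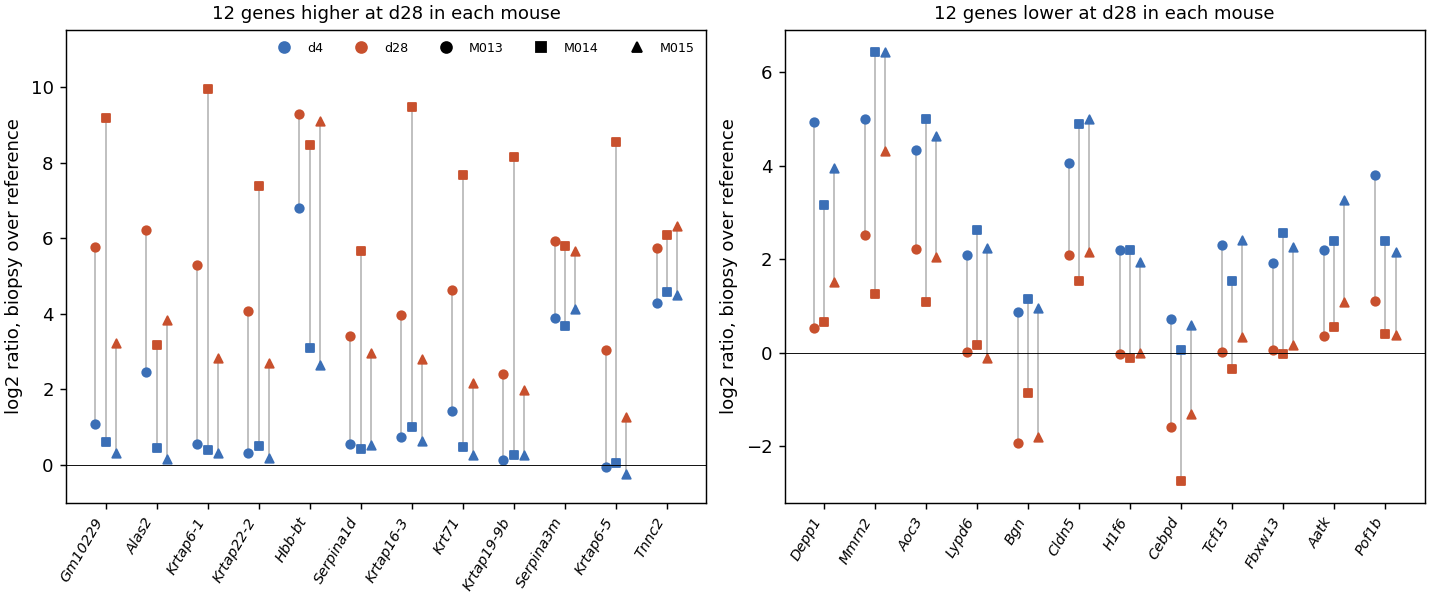
Levels of the leading higher and lower genes at d4 and d28 in 3 Gy skin, as the log2 ratio of biopsy over reference RNA, with 1 point for each mouse and time. The keratin-associated genes are spread widely at d28, with M014 highest (9.94 for Krtap6-1 against 2.83 in M015), while the lower genes lie closer together.

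Adipocyte genes had a median level of 4.10, 4.21 and 4.25 at d4 and of 2.94, 1.92 and 3.48 at d28. Their median difference was -1.04 over 19 genes, and -0.87, -1.43 and -0.63 in M013, M014 and M015. Of the 16 genes measured on both days with 3 pairs 11 were lower and 1 higher in each of the mice (21% and 12.3% of all such genes), and 4 were at least 2-fold lower in each (0.784% of all genes). Plin1, which coats the lipid droplet, was at 5.26, 5.62 and 5.31 at d4 and at 2.78, 1.69 and 3.73 at d28 (-2.66 ± 0.44, adjusted p = 0.162, or 0.0599 with all scanner arrays). Pnpla2, the triglyceride lipase of adipocytes, was at 1.95, 2.50 and 2.55 at d4 and at 0.33, 0.58 and 0.82 at d28. Lpl, lipoprotein lipase, differed by -1.03, -2.04 and -1.02, and Trarg1, a partner of glucose transporter trafficking, by -1.74, -1.28 and -1.64, with an adjusted p of 0.0392 with all scanner arrays.

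Other products of adipocytes were not 2-fold lower in each mouse. Adipoq, the hormone adiponectin, was at 6.49, 7.12 and 6.91 at d4 and at 6.44, 5.65 and 6.58 at d28, and only M014 was more than 2-fold lower. Cfd, the complement protease adipsin, was at 8.35, 9.25 and 9.03 at d4 and at 9.13, 8.67 and 9.08 at d28, and Car3, a carbonic anhydrase of fat and muscle, was higher in each mouse by 0.60, 0.27 and 0.89. The raw biopsy signal of Adipoq was nonetheless lower at d28, at 2911, 1052 and 2106 against 10545.5, 8391 and 8373.5 at d4, and its reference signal was lower too, at 99, 81 and 88 against 336, 405 and 335. Of the 19 adipocyte genes 9 were at least 2-fold lower in each mouse in the biopsy signal and 4 in the reference signal, against 208 and 527 of all 13665 genes. The median of the list was 0.12 when the background model was fitted on all spots, the 1 of 14 alternatives that turned its direction.

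Alas2 and the globin genes measured were higher at d28 than at d4, while the erythroid list as a whole was mixed. Alas2, the first enzyme of haem synthesis in erythroid cells, was at 2.46, 0.44 and 0.16 at d4 and at 6.21, 3.17 and 3.83 at d28, with no overlap. It was well above background on 1 of the 3 d4 arrays and entered through d28, where it is high, so its levels are given without a p. Hbb-bt was at 6.80, 3.09 and 2.64 at d4 and at 9.29, 8.45 and 9.11 at d28 (4.78 ± 0.72, adjusted p = 0.141, or 0.0163 with all scanner arrays). M013 had the highest d4 value of both genes. Hba-a1, an α-globin gene, was measured at both times only in M015, where it was at 2.37 and then at 6.40. The globin genes have near-identical copies, so their probes may share signal.

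The other erythroid genes gave little. Slc4a1, the anion exchanger of the red cell membrane, was at 0.18, -0.17 and -0.10 at d4 and at 1.22, 2.11 and 0.29 at d28. Of 18 listed genes 7 could be tested, of which 2, Alas2 and Slc4a1, entered only through their d28 arrays. Of the 4 genes measured on both days with 3 pairs 1 was higher in each of the mice (Hbb-bt) and 1 lower (Car1, a carbonic anhydrase), and the median over the genes that passed on both days was 0.47. The median over all 7 was 1.24, or 0.40 with the deposited values, and 1.02, 1.65 and 0.72 in M013, M014 and M015, beside 1.33 without M013, 0.71 without M014 and 1.33 without M015. The time course places the low value at d4: in M014 Hbb-bt was at 7.41 at h2, 3.09 at d4, 7.82 at d7, 8.26 at d21 and 8.45 at d28, and in M015 it was at 8.13, 2.64, 7.58 and 9.11 at h2, d4, d21 and d28. In the sham mouse it was at 7.30 at d4 and 7.97 at d28. The early biopsy of M013 that was low, at 2.21, carries the label h2.

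**Figure D3:**
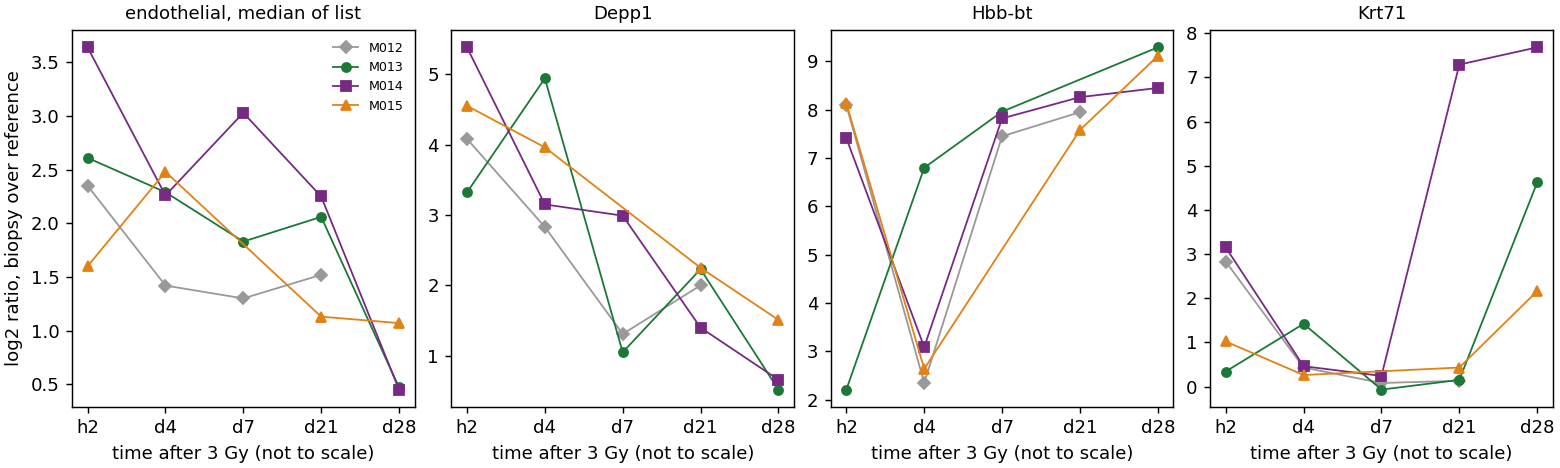
Time course of selected genes and gene lists in the 3 Gy mice M012 to M015, as the log2 ratio of biopsy over reference RNA at h2, d4, d7, d21 and d28, with the time axis not to scale and 1 line for each mouse. Hbb-bt dips at d4 to 2.35 to 3.09 in M012, M014 and M015, and M013 has its low value of 2.21 at h2.

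The structural genes of hair were higher at d28, most of all in M014. The 32 keratin-associated protein genes tested had a median level of 0.15, 0.08 and 0.08 at d4 and of 0.65, 6.87 and 0.70 at d28. Their median difference was 2.36, and 0.49, 6.75 and 0.70 in M013, M014 and M015, and it was 0.58 without M014. Of the 32, 13 were well above background on at least 2 d4 arrays, and 19 entered only through their d28 arrays. Of the 9 measured on both days with 3 pairs 6 were higher in each of the mice (12.3% of all such genes) and 0 lower. Gm10229, a predicted gene of the keratin-associated cluster on chromosome 16, was at 1.09, 0.59 and 0.32 at d4 and at 5.77, 9.17 and 3.21 at d28 (5.38 ± 1.01, adjusted p = 0.178, or 0.0186 with all scanner arrays). Krtap6-1, from the same chromosome, was at 0.56, 0.38 and 0.31 at d4 and at 5.28, 9.94 and 2.83 at d28 (5.60 ± 1.24, adjusted p = 0.203, or 0.0278 with all scanner arrays).

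Krtap22-2, Krtap6-5 and Krtap19-9b were not well above background on any d4 array, and neither a fold nor a p is given for them. Krtap22-2 was at 0.31, 0.51 and 0.18 at d4 and at 4.06, 7.37 and 2.69 at d28. Krtap6-5 was at -0.05, 0.04 and -0.25 at d4 and at 3.04, 8.55 and 1.26 at d28. Krtap19-9b was at 0.13, 0.26 and 0.27 at d4 and at 2.40, 8.15 and 1.99 at d28. All mice were above their d4 values, M014 by the most. Family members are similar in sequence and their probes may share signal.

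Genes of the growing follicle followed the shaft genes, with M014 again apart. The median of the 18 tested was at 0.82, 0.36 and 0.22 at d4 and at 1.62, 6.08 and 0.47 at d28. The median difference was 1.42, and 0.36 without M014. Of the 18, 7 entered only through their d28 arrays, and of the 8 measured on both days with 3 pairs 3 were higher in each of the mice and 0 lower. Krt71, a keratin of the inner root sheath, was at 1.42, 0.46 and 0.26 at d4 and at 4.62, 7.68 and 2.16 at d28 (4.11 ± 0.96, adjusted p = 0.214, or 0.229 with all scanner arrays). Krt33a, a keratin of the hair cortex, was at 1.30, -0.03 and -0.18 at d4 and at 3.97, 10.05 and 0.89 at d28, and the d28 level of M015 lay under the d4 level of M013. In M014 Krt71 was already at 7.29 at d21, when the keratin-associated median was still 0.17. Melanocyte genes were higher in M014 alone, with a median difference of 2.94 there against -0.80 in M013 and -0.64 in M015. Dct, an enzyme of pigment synthesis, was at 5.22, 3.36 and 4.54 at d4 and at 4.41, 6.34 and 3.40 at d28.

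Many but not all genes of plasma proteins and other products of the liver were also higher at d28. This list was drawn up after Serpina1d and Serpina3m had been seen among the leading genes, so its count is not independent of them. The 22 genes tested had a median level of 0.13, 0.23 and 0.13 at d4 and of 1.37, 4.72 and 0.99 at d28. Of these 22, 11 entered only through their d28 arrays. The median difference was 1.77, and 0.52 without M014, and it was 0.41 over the probes well above background on all arrays. Of the 10 genes measured on both days with 3 pairs 5 were higher in each of the mice and 2 lower. The lower ones were Cyp2e1, a cytochrome P450, at 5.42, 6.16 and 5.89 at d4 and at 3.88, 2.53 and 4.03 at d28, and Rbp4, the carrier of retinol, at 3.04, 4.10 and 3.29 and then at 1.85, 3.35 and 2.00. Serpina1d, an α1-antitrypsin gene, was at 0.54, 0.41 and 0.52 at d4 and at 3.40, 5.66 and 2.97 at d28 (3.52 ± 0.55, adjusted p = 0.141, or 0.0125 with all scanner arrays). Alb, serum albumin, was at 0.13, 0.55 and 0.50 at d4 and at 2.48, 5.32 and 0.89 at d28, and Ahsg, the plasma glycoprotein fetuin-A, at -0.04, -0.03 and 0.03 and then at 2.19, 5.62 and 1.04.

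Serpina3m, a serine protease inhibitor, was higher by a similar amount in each mouse, at 3.89, 3.66 and 4.12 at d4 and at 5.91, 5.79 and 5.66 at d28 (1.90 ± 0.22, adjusted p = 0.133, or 0.0736 with all scanner arrays). The difference was 0.43 with the deposited values, 1.22 with the Cy5 channel alone and 3.25 when the background model was fitted on all spots, and at d4 Serpina3m was already at 5.55 and 5.18 in the 1 Gy mice M007 and M009. Its reference signal was 338, 331 and 308 at d4 and 119, 194 and 108 at d28, while its biopsy signal was 1851, 757 and 1252 and then 2424, 1851 and 1398. Kap, an androgen-regulated kidney gene, was at -0.28, -0.02 and 0.12 at d4 and at 0.77, 5.76 and 5.02 at d28, and it was not well above background on any d4 array. The median of the 7 kidney genes tested, likewise listed afterwards, was -0.06. Tnnc2, a troponin of fast muscle, had a higher ratio in each mouse (1.47, 1.51 and 1.82), while its biopsy signal was 89319, 37329 and 102003 at d4 and 80074, 10387 and 113821 at d28, and its reference signal 14578, 11889 and 26426 and then 5269, 1334 and 8232. The deposited values gave Tnnc2 an adjusted p of 0.942, and with the Cy5 channel alone its difference was -0.23.

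**Figure D4:**
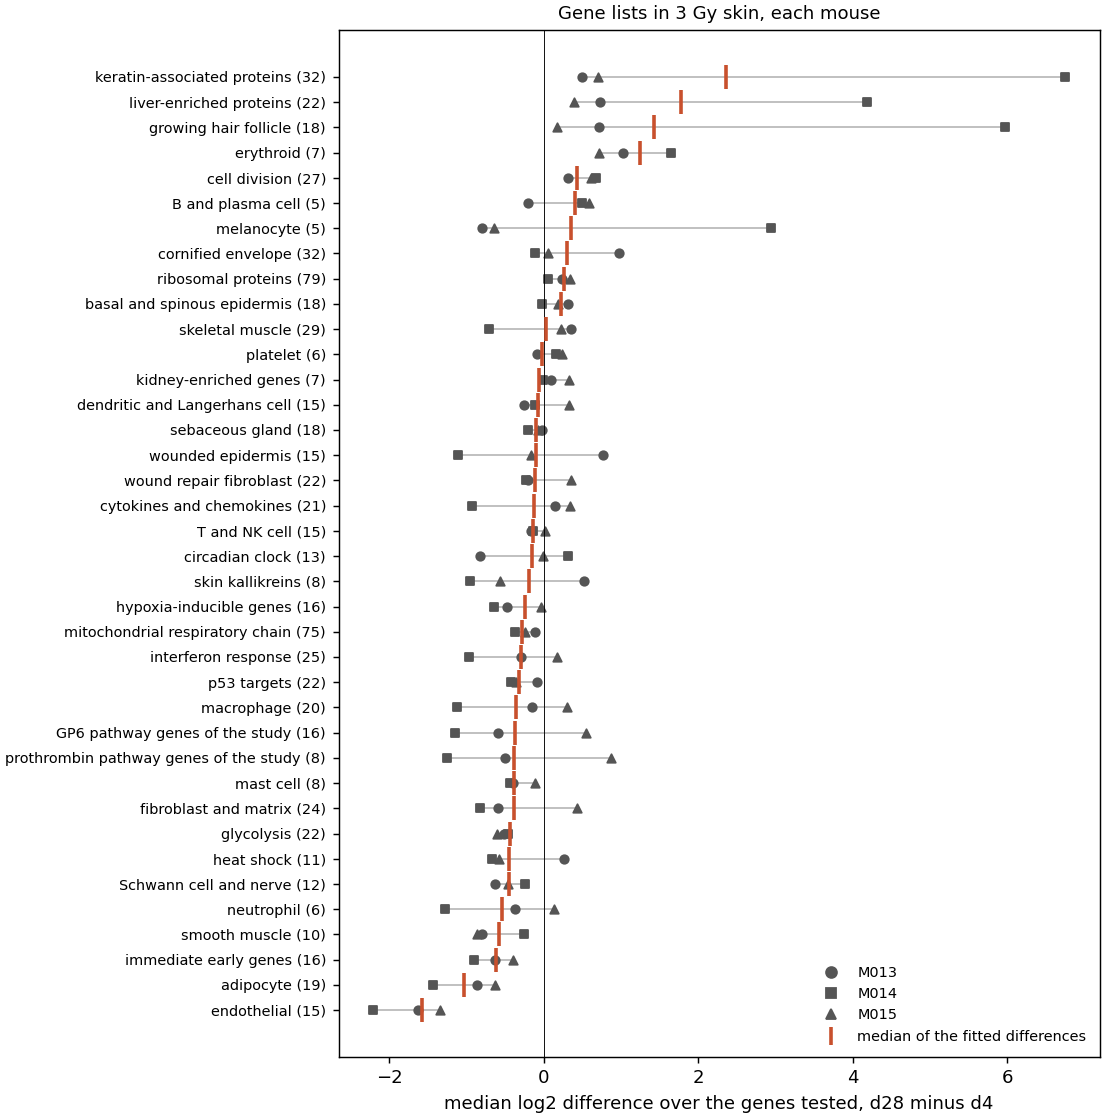
Median log2 difference, d28 minus d4, over the tested genes of each list in 3 Gy skin, with 1 marker for each mouse and a bar for the median of the fitted differences. Endothelial and adipocyte genes lie under 0 in each of the mice (-1.34 to -2.21 and -0.63 to -1.43), and the hair and liver lists are drawn out by M014 (6.75 for the keratin-associated proteins).

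Cell division genes were a little higher at d28. Of the 25 genes measured on both days 16 were higher in each of the mice (12.3% of all such genes) and 0 lower, and the median difference was 0.43 (0.31, 0.67 and 0.61 in M013, M014 and M015). The list median from d4 to d28 was 0.60 in the sham mouse, so a higher median was also present in unirradiated skin. It was 0.52, 0.23 and -0.28 in the 1 Gy mice and 0, 0.63 and 0.39 in the 6 Gy mice. The part of radiation in this difference was not tested. Cenpf, a kinetochore protein, was at -2.63, -2.28 and -2.84 at d4 and at -1.60, -1.50 and -1.70 at d28, with no overlap (0.99 ± 0.20, adjusted p = 0.186, or 0.0274 with all scanner arrays but under 2-fold). Mki67, the usual marker of cycling cells, was at -2.67, -3.37 and -4.69 at d4 and at -2.29, -1.63 and -3.23 at d28, so the times overlapped. Top2a, the topoisomerase of dividing cells, was at -2.37, -2.31 and -2.94 at d4 and at -1.71, -0.81 and -2.12 at d28. The median was 0.06 with median centring in place of loess, and with the background model fitted on all spots it turned to -0.37.

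Immediate early genes, which respond to stimuli within minutes and also to tissue handling, were lower at d28. Their median was -0.62 over 16 genes (-0.63, -0.91 and -0.40), and 9 of the 13 with 3 pairs were lower in each of the mice (21% of all genes measured on both days). The median was -0.15 with the deposited values. Fos was at -1.48, 0.74 and 1.83 at d4 and at -1.87, -2.62 and 0.19 at d28, and Nr4a1, an orphan nuclear receptor, at 0.34, -0.22 and 1.27 and then at -2.25, -2.60 and 0.88, with overlap in both. The sham pair gave a median of -1.35 and a Fos difference of -4.81. Glycolysis genes, listed after values were seen, had a median of -0.44 and 10 of 19 with 3 pairs were lower in each of the mice, against the same 21%. Ldha, lactate dehydrogenase, was at -0.12, -0.07 and 0.82 at d4 and at -1.31, -1.69 and -0.96 at d28 (-1.53 ± 0.22, adjusted p = 0.133, or 0.254 with all scanner arrays).

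Collagen and clotting genes differed between the mice. The 16 genes of the GP6 pathway, through which collagen activates platelets, had a median of -0.37, and -0.59, -1.15 and 0.54 in M013, M014 and M015. The 8 genes of the prothrombin pathway had -0.39, and -0.50, -1.26 and 0.87. Col6a3, which the study also counts in the GP6 pathway, was not tested here. The study chose both lists on samples of this series, so they are not independent evidence of a direction. Within them Col5a3, a fibrillar collagen chain, was lower in each mouse, at 1.44, 1.55 and 1.75 at d4 and at -0.54, 0.06 and 0.37 at d28. Pf4, platelet factor 4, could be compared only in M014, at -0.59 and then -1.47, while the deposited values gave a difference of 1.69. Hebp2, a haem-binding protein, differed by -0.09 ± 0.22.

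Other lists moved little or unevenly. Smooth muscle genes had a median of -0.58 (-0.80, -0.26 and -0.86) and Schwann cell and nerve genes of -0.45 (-0.63, -0.24 and -0.47), of which 4 of 12 had a reference signal at least 2-fold lower in each mouse. The list of p53 targets, which respond to DNA damage, had -0.32 (-0.09, -0.43 and -0.36) and the interferon response -0.30 (-0.29, -0.97 and 0.17). Fibroblast and matrix genes had -0.39 but 0.43 in M015, and macrophage genes -0.36 but 0.30 in M015. The cornified envelope had 0.30, of which M013 gave 0.97, and ribosomal proteins 0.26. Sebaceous gland, T and NK cell, dendritic cell and platelet genes had medians of -0.10, -0.14, -0.08 and -0.03. Hypoxia-inducible genes, listed after values were seen, had -0.24 (-0.48, -0.65 and -0.04), and mitochondrial respiratory chain genes -0.28. Smooth muscle, p53, hypoxia and mitochondrial medians kept their direction under the 14 alternatives, of which Aquantile scaling and the absence of a filter leave every list median as it was. The direction turned in 1 of them for the Schwann cell, interferon, cornified envelope and T and NK cell lists, in 2 for fibroblasts, ribosomal proteins and sebaceous gland, in 3 for macrophages, in 4 for dendritic cells and in 5 for platelets.

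The same mice and M012 were next compared between d21 and h2, to see how far the endothelial pattern held in other biopsies. By limma 0 of 25418 probes were called higher (0%) and 0 lower (0%), the smallest adjusted p was 0.0587, and at an unadjusted p under 0.05 there were 130 at least 2-fold higher and 541 at least 2-fold lower. Without M013, whose h2 array stood apart and whose d21 array was the only one of the comparison on its slide and in its scan, 134 were called higher and 397 lower. The endothelial median was -0.64, -0.64, -1.01 and -0.87 in M012 to M015, lower in each. Melanocyte, Schwann cell, mast cell, circadian clock and fibroblast medians were lower in each mouse too, so this was not particular to endothelial genes. The median of the fitted differences was -0.82 for endothelial genes and -0.04 for all genes tested. It was -1.29 for skeletal muscle, -1.03 for melanocyte and -0.95 for fibroblast and matrix genes. Cldn5 differed by -0.21, -0.82, -0.90 and -0.87 and Robo4 by -0.26, -0.66, -0.50 and -1.03. The keratin-associated median was 0.03, -0.07, 0.16 and -0.07, and Hbb-bt differed by -0.13, 0.85 and -0.56 in M012, M014 and M015. In skeletal muscle genes M015 stood at -4.11.

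Levels of the endothelial list between these times were uneven. In M013 the median was 2.61, 2.29, 1.83, 2.06 and 0.47 at h2, d4, d7, d21 and d28, in M014 it was 3.64, 2.26, 3.03, 2.25 and 0.45, and in M015, which has no d7 array, 1.60, 2.48, 1.13 and 1.07. The d28 value was the lowest of each mouse, though in M015 by less than 0.1.

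To ask whether the difference belonged to 3 Gy, its change from d4 to d28 was set against the mean of the changes at 1 Gy and 6 Gy. By limma 0 of 27407 probes were called higher (0%) and 0 lower (0%), with a smallest adjusted p of 0.961, and at an unadjusted p under 0.05 there were 119 at least 2-fold higher and 240 at least 2-fold lower. The interval of such a difference is wide: for Cldn5 it was -1.66 ± 0.51 (SE) and for Robo4 -1.92 ± 0.45. Of the mice compared, only M008 had its d4 and d28 arrays read in different scans. The endothelial median was -1.28, -0.22 and -1.14 in the 1 Gy mice M007, M008 and M009, -0.55, -0.57 and 0.54 in the 6 Gy mice M016, M018 and M020, and -1.51 in the sham mouse M002. The lower endothelial ratio was thus also present in unirradiated skin of 1 mouse. The 3 Gy and 6 Gy mice did not overlap. They did not overlap either for the smooth muscle, mast cell and basal and spinous epidermis lists, so this was not particular to endothelial genes.

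The adipocyte median was -0.88, -0.10 and -0.97 at 1 Gy, -0.20, -1.28 and -0.83 at 6 Gy and -1.02 in the sham mouse, with M008 and M016 nearest to 0. The erythroid median was 0.49, 0.27 and 0.38 at 1 Gy, 0.91, 1.01 and 1.05 at 6 Gy and -0.27 in the sham mouse. Alas2 was at 1.75, 1.08 and 1.03 at d4 and at 4.19, 3.74 and 4.87 at d28 at 1 Gy. In the 6 Gy mice it was at 0.11, 0.32 and -0.02 and then at 2.16, 4.07 and 3.24, and in the sham mouse at 2.75 and then at 1.82. The d4 levels at 6 Gy are near 0, where the low side may not be measured, so no differences are given. Hbb-bt was higher by 1.58 and 1.77 in the 1 Gy mice M007 and M009, by 6.05, 3.21 and 4.90 at 6 Gy and by 0.67 in the sham mouse. The keratin-associated median was 0.13, 0.10 and -0.77 at 1 Gy, 2.55, 0.04 and 2.20 at 6 Gy and 0.14 in the sham mouse, so that 1 of the 6 Gy mice lay under the 3 Gy mice. The liver list had 0.68, 0.11 and 0.17 at 1 Gy, 0.03, 1.20 and 1.42 at 6 Gy and 0.00 in the sham mouse. Its level was also high at d28 in mice with no d4 array, with 2.06 in the sham mouse M003 (0.04 at d7 and 0.07 at d21), 6.56 in the 1 Gy mouse M006 (0.05 and 0.20) and 1.70 in the 6 Gy mouse M019 (0.09 at d21). Serpina1d was at 5.31 in M003 at d28. Depp1 differed by -1.90, -2.87 and -3.04 at 1 Gy, by 0.91, -0.11 and 1.18 at 6 Gy and by -3.18 in the sham mouse.

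**Figure D5:**
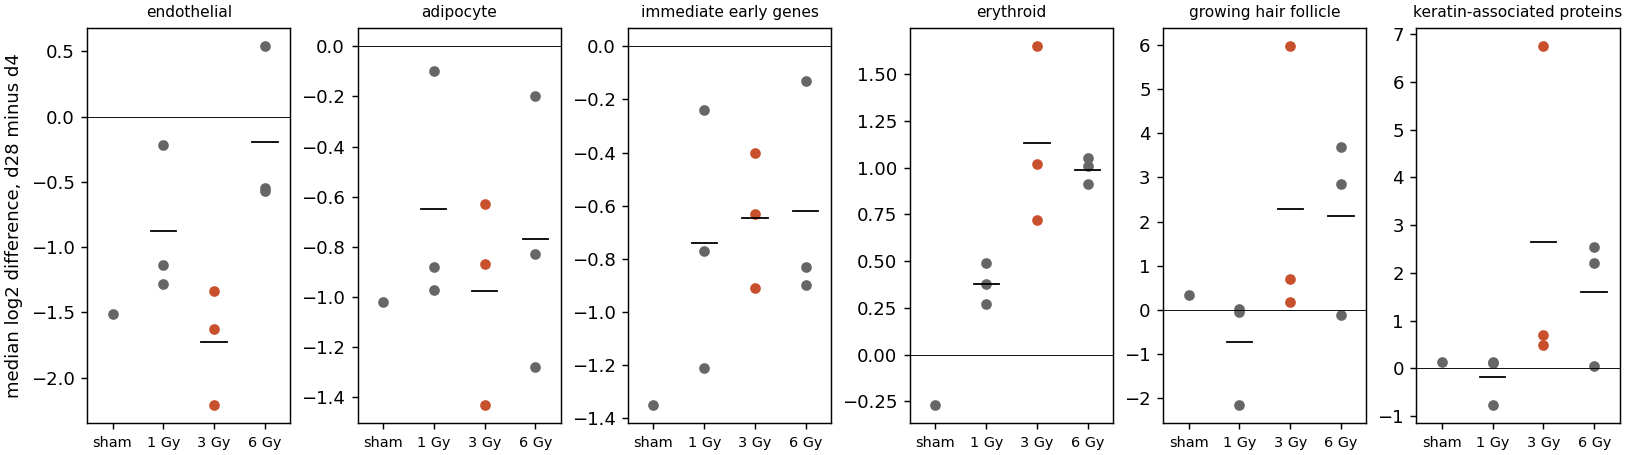
Median log2 difference, d28 minus d4, of gene lists in each mouse of the sham, 1 Gy, 3 Gy and 6 Gy groups, with 1 point a mouse and a line at the mean of each group of 3. The endothelial medians of 3 Gy (-1.34 to -2.21) lie beside the sham mouse at -1.51 and below the 6 Gy mice at -0.57 to 0.54.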

How the data were processed

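RNA of each biopsy (Cy5) and a universal mouse reference RNA (Cy3) were hybridised to Agilent 2-colour arrays of 45018 spots with no dye swap, and arrays were read by Agilent Feature Extraction (10.10.1.1 in the file headers of the 6 arrays, 11.0.1.1 in the submitters' processing notes). The deposited scanner files hold spot intensity on a linear scale and the software's log10 ratio of Cy5 over Cy3. A second deposited table, the authors' own normalization on a log2 scale with 41267 rows, was an alternative, and its steps are not given in the sources used here. Scanner median intensities were corrected by normexp with an offset of 50, normalized by loess within arrays with control spots at weight 0, and averaged over spots of a probe after spots with an outlier flag (0.704% of values) were removed. The normexp fit left out the lowest 0.1% of spots, a choice made after seeing the data: fitted on all spots it placed a floor of up to 2260 under the 6 arrays, against 52.4 to 54.0 here.

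Paired differences were fitted by limma 3.58.1 in R 4.3.3 with the mouse as a block, on probes well above background in Cy5 on 2 of the 3 arrays of either day (in the other comparisons, on 50% or more of some group's arrays), and adjusted by Benjamini-Hochberg over all probes tested. The block rests on the mouse identities of the labels. Deviations of the d4 and d28 arrays of a mouse correlated at 0.04, 0.18 and 0.20. The spread measures mice of 1 experiment. Of 41174 probes 27553 (66.9%) were named through the annotation table, as 18679 genes, each represented by its brightest probe. Saturated spots were kept. No fold is given for a gene not well above background on any array of a day.

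Named genes were the 12 highest and 12 lowest, filled by the smallest difference among the 3 mice because none was called, and up to 4 members of each list, plus genes named by the study. Some members were named for their values. The members and lists were chosen with earlier results of these data known. The lists of liver, kidney, glycolysis and hypoxia genes were added after values were seen. Alternatives were the fit without the block, median centring, the scanner software's ratio, the deposited values, other background steps, scaling and filters, all arrays of the scanner in 1 fit, and leaving out each mouse. Counting the lists over genes well above background on both days was a choice made after seeing the data. The script was tested on simulated data.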

Additional observations from a re-analysis of the deposited data

Results flagged for a closer look

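In the 4 mice compared between d21 and h2, 1 mouse lay far from the others in 5 of the 58 sets of 4 values examined, by Dixon's test, and chance gives about 1 in 20. Cldn5 was nearest to 0 in M012, at -0.21. The growing hair follicle median stood apart in M014, at 0.83, and the skeletal muscle median in M015, at -4.11. In M013 the basal and spinous epidermis median, at -0.36, and the neutrophil median, at 0.79, lay apart from the other mice, and its d21 array was the only one of this comparison on its slide and in its scan. The mast cell median from d4 to d28 was below 0 in each of the 3 Gy mice, with a mean of -0.32 (-0.40, -0.44 and -0.12), and above 0 in each of the 6 Gy mice (0.06, 0.52 and 0.11). It was also below 0 in the 1 Gy mice (-0.08, -0.17 and -0.22) and in the sham mouse (-0.23). The difference between 3 Gy and 6 Gy was not tested, and the endothelial, smooth muscle and basal and spinous epidermis medians did not overlap between these doses either. The 3 Gy median turned its direction in 3 of the 14 alternatives, to 0.16 with the deposited values, 0.27 with the scanner software's log ratio and 0.18 with normexp fitted on all spots, and 2 of the 8 mast cell genes had a reference signal at least 2-fold lower at d28 in each 3 Gy mouse.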

How the results depend on the processing

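From d4 to d28, 0 probes were called in either direction by the paired limma fit and by 10 of the 14 alternatives (range without 1 mouse 0 to 0 higher and 0 to 0 lower), among them median centring, no background subtraction, Aquantile, both filters on dim probes, normexp fitted on all spots and the Cy5 channel alone. The fit with no mouse block, which ignores the pairing, called 1 higher and 4 lower, the scanner software's log ratio 3 and 2, the deposited values 132 and 323, and all scanner arrays in 1 fit 170 and 118. From h2 to d21, the fit with no mouse block called 19 higher and 19 lower, the deposited values 213 and 475, slide as a random block 120 and 482 (with a correlation within slides of -0.48), all scanner arrays 20 and 36, and leaving out 1 mouse 0 to 134 higher and 0 to 397 lower. The contrast with 1 Gy and 6 Gy gave 0 in either direction under each alternative run, with or without the block. Slide as a random block was not run from d4 to d28, where it could not be fitted. The cause of these differences in count was not tested.

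The 24 leading genes were picked by their smallest difference among the mice, so leaving out a mouse cannot turn them. Aquantile, no filter and the fit with no mouse block leave their differences as they are. The filter on all arrays does so for the 14 of them that it keeps. Under the other alternatives the direction turned for Cldn5 with the scanner software's log ratio (0.49) and for Tnnc2 with the Cy5 channel alone (-0.23). Sizes shrank for some: with normexp fitted on all spots Aoc3 went from -2.88 to -0.24, Cldn5 from -2.72 to -0.42 and Aatk from -1.95 to -0.38, and with the deposited values Tnnc2 from 1.60 to 0.03, Serpina3m from 1.90 to 0.43, Pof1b from -2.16 to -0.32, Cebpd from -2.35 to -0.59 and Bgn from -2.52 to -1. Endothelial, erythroid, keratin-associated, follicle and liver medians kept their direction under all 14, though not their size, and Aquantile and no filter leave every list median as it is, and the adipocyte and cell division medians turned under 1, normexp fitted on all spots, where the endothelial median was -0.30. Without M013, M014 or M015 the endothelial median was -1.49, -1.37 and -1.78, and the keratin-associated median 3.21, 0.58 and 3.32. Median centring moved the median of all probes from -0.03 to -0.19. Where a gene was not well above background on any array of a day, its low side is not measured.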
